A study of Mus musculus with 4 samples.

Results

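Total RNA from a whole mouse embryo and from an embryonic mouse liver, both lacking Adar1, was compared by RNA sequencing with 1 library on each side. The embryo library was taken at stage E11.5 (days of embryonic development), carried the genotype Adar1-/- and had the strain label C57B16/N. The liver library was taken at E15.5, carried the same genotype Adar1-/- and had the strain label C57B6/J. These are 2 of the 4 libraries of the series. The other 2 are an E11.5 whole embryo (C57B16/N) and an E15.5 liver (C57B6/J), each with the genotype Adar1-/-; Mavs-/-, and they serve here as a second liver and embryo pair that shares no library with the first. All 4 animals or pools lacked Adar1 by their labels and none was wild type. Tissue, stage and strain label differed together, so their parts in any difference cannot be told apart. With 1 library a side there is no spread between animals to judge a difference by, no test was made, and every value compares these libraries.

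The 2 deposited value sets overlap on chromosomes 10 and 11 and on chromosome 12 as far as 11.7 Mb, where 4197 gene symbols had values in both libraries. Of these, 1760 genes had at least 1 FPKM (the fragments mapped to a transcript, per kilobase of its length and relative to all mapped fragments) in either library and were counted. The FPKM of a gene's annotated Ensembl isoforms were summed. Liver values were multiplied by 1.28 so that the median ratio of the 627 genes that reached 5 FPKM on both sides was 1. All liver FPKM below are scaled in this way, by 1.11 in the Adar1-/-; Mavs-/- pair. The log2 ratio was taken between liver and embryo after adding 1 FPKM to each, which understates the differences of genes with low values, and a gene at least 2-fold apart on this scale is called higher or lower in liver.

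The whole embryo at this stage holds neural tube, somites, limb buds, heart, surface ectoderm and primitive red cells, with a liver that has only begun to form. The fetal liver some days later is both an organ of hepatocytes, which secrete plasma proteins and metabolise amino acids, and the main site of blood formation, where definitive red cells and granulocytes mature beside resident macrophages. ADAR1, the enzyme that edits adenosine to inosine in double-stranded RNA, keeps cellular RNA from being read as foreign by the sensor MDA5, which signals through the adaptor MAVS to interferon genes. Loss of ADAR1 is known to be lethal in midgestation, and the sources used here give neither the allele nor the state of the embryos.

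Liver and embryo differed in more than a small set of genes. Of the 1760 genes counted, 511 (29%) were higher in the liver library and 543 (30.9%) were lower, so that 59.9% were at least 2-fold apart, and the median log2 ratio was -0.08. Against this background a list of genes stands out only where far more of its members lie on one side. TPM here means scaling by the sum of all gene values in place of the median ratio. A gene was counted if it reached 1 FPKM in either library, so a member that is near 0 on one side was counted only if it was high on the other, and its direction follows from that rule. Medians of several lists are therefore given also without the filter, over members above 0 in either library. Among 1477 protein-coding genes, 402 were higher and 477 lower. Chromosome 10 had 189 higher and 156 lower of 594 genes, and chromosome 11 had 311 higher and 377 lower of 1133.

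The 2 libraries differed in depth, and many single values rest on the choice of isoforms. The liver library was the deeper one, with 8.58 units of coverage per FPKM where the embryo library had 3.48. The deposited bounds, which cover estimation within a library only, lay a median of 16.9% from the value in the embryo and 10.9% in the liver for genes of 1 to 5 FPKM, and they were apart between the 2 libraries for 479 of the 511 genes higher in liver and 513 of the 543 lower. An annotated isoform is often listed at 0 while an isoform assembled from the same reads has a value. Values of 0 in the embryo stood behind 157 of the higher genes, and 74 of those had at least 1 FPKM there when assembled isoforms were added. Values of 0 in the liver stood behind 198 of the lower genes, 69 of which had at least 1 FPKM there with assembled isoforms. With assembled isoforms added, 382 of the 511 and 454 of the 543 stayed 2-fold apart the same way, and 19 and 5 were 2-fold apart the other way. Adar on chromosome 3 and Mavs on chromosome 2 lie outside the shared part. In the liver library labelled Adar1-/-, 0 of 8 annotated Adar isoforms were above 0 and Mavs had 4.79 FPKM as deposited. The liver labelled Adar1-/-; Mavs-/- had 3 of 8 Adar isoforms above 0, with 2.82 FPKM between them, and Mavs had 6.82 FPKM, so that library is named by its label only.

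**Figure D1:**
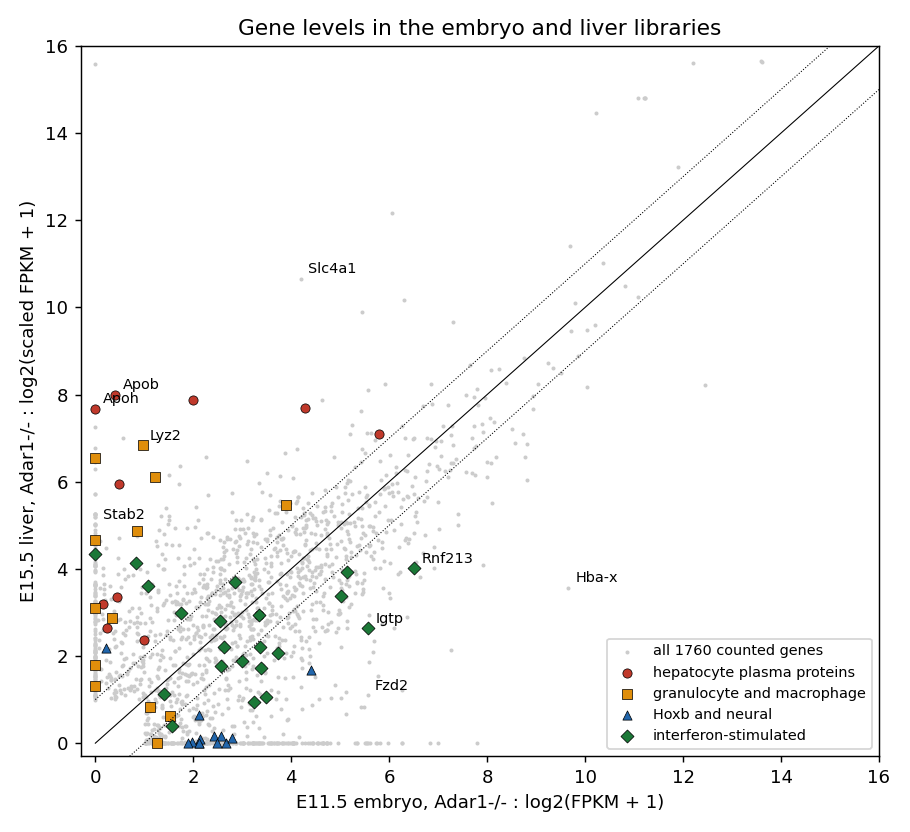
Each point is a gene, placed by log2 of FPKM plus 1 in the E11.5 embryo (horizontal) and of scaled FPKM plus 1 in the E15.5 liver (vertical), with the 1760 counted genes in grey and members of 4 groups of lists in colour. The solid line marks equal levels and the dotted lines 2-fold differences. Most plasma protein, granulocyte and macrophage genes sit above the lines, with Lgals3bp, Ccl2 and Ccl12 between them and Evi2a below, Hoxb genes and the neural genes other than Gfap lie along the lower edge, and Hba-x and Rnf213 lie below.

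Most counted genes for hepatocyte products were higher in the liver library. Of 14 genes for proteins that hepatocytes secrete or show on their surface, 11 were counted, 10 were higher and 0 lower, and their median log2 ratio was 3.04 beside -0.08 for all genes, and 2.66 without the filter over 14 genes. Apob (chromosome 12, 7984454 to 8023641, mm9), the structural protein of very low density and low density lipoproteins, had 0.324 FPKM in the embryo and 255 FPKM in the liver, a log2 ratio of 7.59. Its estimation bounds were 0.258 to 0.391 FPKM in the embryo and 254 to 256 FPKM in the liver. Apoh, a plasma glycoprotein that binds phospholipids, was listed at 0 in the embryo and had 204 FPKM in the liver. Serpinf2, the inhibitor of plasmin, had 2.97 FPKM in the embryo and 233 FPKM in the liver (log2 ratio 5.88).

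Other members of the list differed less or depended on the isoforms used. Serpinf1, which encodes the antiangiogenic protein PEDF, had 54.4 FPKM in the embryo and 135 FPKM in the liver (log2 ratio 1.3). Vtn, for the adhesive plasma protein vitronectin, had 18.5 FPKM in the embryo and 207 FPKM in the liver, a log2 ratio of 3.42 that was 1.05 with assembled isoforms added, since the embryo then had 97.1 FPKM. Igfbp1, a binding protein for insulin-like growth factors, went from 0.393 FPKM in the embryo to 60.5 FPKM in the liver (log2 ratio 5.46). The log2 ratios of Asgr2 (a subunit of the hepatocyte receptor for desialylated glycoproteins), Shbg (the carrier of sex steroids) and Apof (an apolipoprotein) were 3.04, 2.91 and 2.41. Igf1, the growth factor itself, had a log2 ratio of 1.36, and 0.22 with assembled isoforms. Lgals3bp, a secreted glycoprotein that is also an interferon-stimulated gene, was the member that was not higher, at 9.11 FPKM in the embryo and 6.65 FPKM in the liver (log2 ratio -0.40).

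Enzymes of amino acid and xenobiotic metabolism followed the plasma proteins, with exceptions. Of 30 such genes 19 were counted, 14 higher and 1 lower, with a median log2 ratio of 2.43, and of 1.27 without the filter over 28 genes. Arg1, the arginase of the urea cycle, had 1.74 and 22.8 FPKM in embryo and liver (log2 ratio 3.12). Enzymes of histidine and lysine breakdown, Amdhd1, Ftcd and Pipox, had log2 ratios of 2.81, 3.08 and 3.17, and the glutathione transferase Gstt1 had 3.4. Galk1, the galactokinase, was the lower member, with 74.7 FPKM in the embryo and 31.9 FPKM in the liver (log2 ratio -1.20). Mif, a cytokine with tautomerase activity that most tissues express, had 156 and 85.8 FPKM (log2 ratio -0.86). G6pc, the glucose 6-phosphatase of late gestation and adult liver, was listed at 0 in the embryo and had 0.0122 FPKM in the liver.

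Regulators and lipid enzymes showed no common direction. Nr1h4, the bile acid receptor FXR, was listed at 0 in the embryo and had 3.79 FPKM in the liver. The 3 counted hepatocyte regulators split into 1 higher, 1 lower and 1 within 2-fold. Of 8 lipid synthesis and oxidation genes 2 were higher and 1 lower, with a median log2 ratio of 0.35, which was -1.08 scaled to TPM. Fasn, the fatty acid synthase, had 41.8 FPKM in the embryo and 25.1 FPKM in the liver (log2 ratio -0.72), and Acly, which supplies its acetyl-CoA, had 71.1 and 52.9 FPKM (log2 ratio -0.42). Acaca, the acetyl-CoA carboxylase, had a log2 ratio of 1.89 that was 0.65 with assembled isoforms.

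The embryonic globin gene Hba-x and the red cell membrane gene Slc4a1 differed in opposite directions. Hba-x (chromosome 11, 32176400 to 32178116, mm9), which encodes the zeta globin of primitive red cells, had 806 FPKM in the embryo and 10.9 FPKM in the liver. Its log2 ratio of -6.09 was the lowest among the 77 genes that were above 0 in both libraries, had an estimate of status OK for every isoform and kept their direction with assembled isoforms. Slc4a1, the anion exchanger band 3 of the mature red cell membrane, went the opposite way, from 17.4 FPKM in the embryo to 1620 FPKM in the liver (log2 ratio 6.46). The adult alpha globin genes lie beside Hba-x, and their level in the liver was not analysed here, because their isoforms had values in the embryo libraries only.

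The zeta globin promoter is shown because this gene had the lowest ratio. The 250 bases before the Hba-x start (chr11:32276350-32276599, forward strand, RefSeq, GRCm38.p6, another build than that of the expression values) hold the letters TATAAA 28 bases before the start, marked by capitals. These letters were found in 12.4% of 32851 mouse promoter windows of this length and in 6.71% of the 1535 windows of counted genes, on either strand.
Hba-x: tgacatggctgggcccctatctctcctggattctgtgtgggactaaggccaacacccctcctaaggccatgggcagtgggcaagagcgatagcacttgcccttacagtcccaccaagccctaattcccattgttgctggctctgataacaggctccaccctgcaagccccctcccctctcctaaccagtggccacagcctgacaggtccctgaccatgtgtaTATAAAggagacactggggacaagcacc

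The late erythroid list as a whole was mixed, with 4 of 8 genes higher, 3 lower and a median log2 ratio of 0.88, which was -1.05 when the libraries were scaled to TPM. The other lower genes, Rundc3a and Dhrs11, had 23.4 and 2.65 FPKM in the embryo and were listed at 0 in the liver. With assembled isoforms the liver had 7.02 FPKM of Rundc3a (log2 ratio -1.61). Trim58, a ubiquitin ligase of red cell enucleation, had 0.235 FPKM in the embryo and 5.20 FPKM in the liver (log2 ratio 2.33). Btnl10, a butyrophilin-like gene of erythroid cells, had 0.0377 and 6.07 FPKM (log2 ratio 2.77, and -0.03 over isoforms with a sound estimate in both libraries only), and Ube2o, which clears ribosomes from reticulocytes, had 15.95 and 35.35 FPKM (log2 ratio 1.10). Slc25a39, a mitochondrial carrier needed for heme synthesis, had 79.3 FPKM in the embryo and 126 FPKM in the liver (log2 ratio 0.67). Ubb, a polyubiquitin gene of all cells, was lower, at 723 FPKM in the embryo and 360 FPKM in the liver (log2 ratio -1.0). Blood transcription factors also split, with 4 of 10 counted genes higher, 3 lower and a median log2 ratio of 0.42, which was -1.19 scaled to TPM. With assembled isoforms 4 were higher and 1 lower. Zbtb7a, a repressor of embryonic and fetal globin genes, had 1.67 FPKM in the embryo and 17.7 FPKM in the liver (log2 ratio 2.81). Bcl11a, another such repressor, had 7.44 and 9.16 FPKM (log2 ratio 0.27). With assembled isoforms the 2 ratios were 1.43 and 0.99. Stat5b, Stat5a and Stat3, which carry erythropoietin and other cytokine signals, had log2 ratios of 2.16, 1.46 and 1.33. Meis1, a homeobox factor of stem cells and of many embryonic tissues, was lower, with 39.6 FPKM in the embryo and 11.9 FPKM in the liver (log2 ratio -1.66).

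Some granulocyte and macrophage genes were higher in the liver library, while 5 of 10 and 11 of 19 members were below 1 FPKM in both libraries. Of 10 granulocyte genes 5 were counted, 4 higher and 1, Evi2a, lower. Their median log2 ratio was 4.67, but without the filter it was -0.061 over 9 genes, since 3 of the 4 higher genes were counted through the liver alone. The 4 were Mpo, Elane, Prtn3 and Prss57, which encode the peroxidase and serine proteases of primary granules. Mpo had 1.32 FPKM in the embryo and 67.7 FPKM in the liver (log2 ratio 4.89). Elane, Prtn3 and Prss57 were listed at 0 in the embryo and had 24.4, 93.0 and 2.45 FPKM in the liver. Their Adar1-/-; Mavs-/- liver values were 13.9 FPKM for Elane, 0 for Prtn3 and 1.68 FPKM for Prss57. The other 5 granulocyte genes, among them Epx and Lpo of eosinophils and secretions, stayed below 1 FPKM in both libraries.

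Among 19 macrophage genes 8 were counted, of which 6 were higher and 0 lower, with a median log2 ratio of 2.04, and of 0.62 without the filter over 18 genes. The chemokine genes Ccl2 and Ccl12 were the counted members within 2-fold, at log2 ratios of -0.28 and -0.92. Lyz2, the lysozyme of macrophages and granulocytes (chromosome 10, 116714390 to 116719377, mm9), had 0.960 FPKM in the embryo and 113 FPKM in the liver, and its log2 ratio of 5.86 was the highest among the 77 genes with the soundest estimates. Ccl9, a chemokine of myeloid cells, had 0.80 and 28.3 FPKM (log2 ratio 4.02), and its neighbour Ccl6 had a log2 ratio of 2.52. Grn, the lysosomal protein progranulin, had 13.9 FPKM in the embryo and 42.9 FPKM in the liver (log2 ratio 1.56). Cd300a, an inhibitory receptor, and Timd4, a phagocytic receptor of resident macrophages, were listed at 0 in the embryo and had 7.52 and 1.5 FPKM in the liver. Cd68, a defining macrophage gene, was listed at 0 in both libraries, also with assembled isoforms. Of the megakaryocyte genes 2 of 4 were higher, Itgb3 (log2 ratio 1.78) and Alox12 (1.03), while Itga2b had 3.32 FPKM in the embryo and 3.43 FPKM in the liver. Lymphoid and mast cell genes were nearly silent, with 1 of 13 counted. In bulk tissue, more cells of a type and more RNA per cell cannot be told apart.

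**Figure D2:**
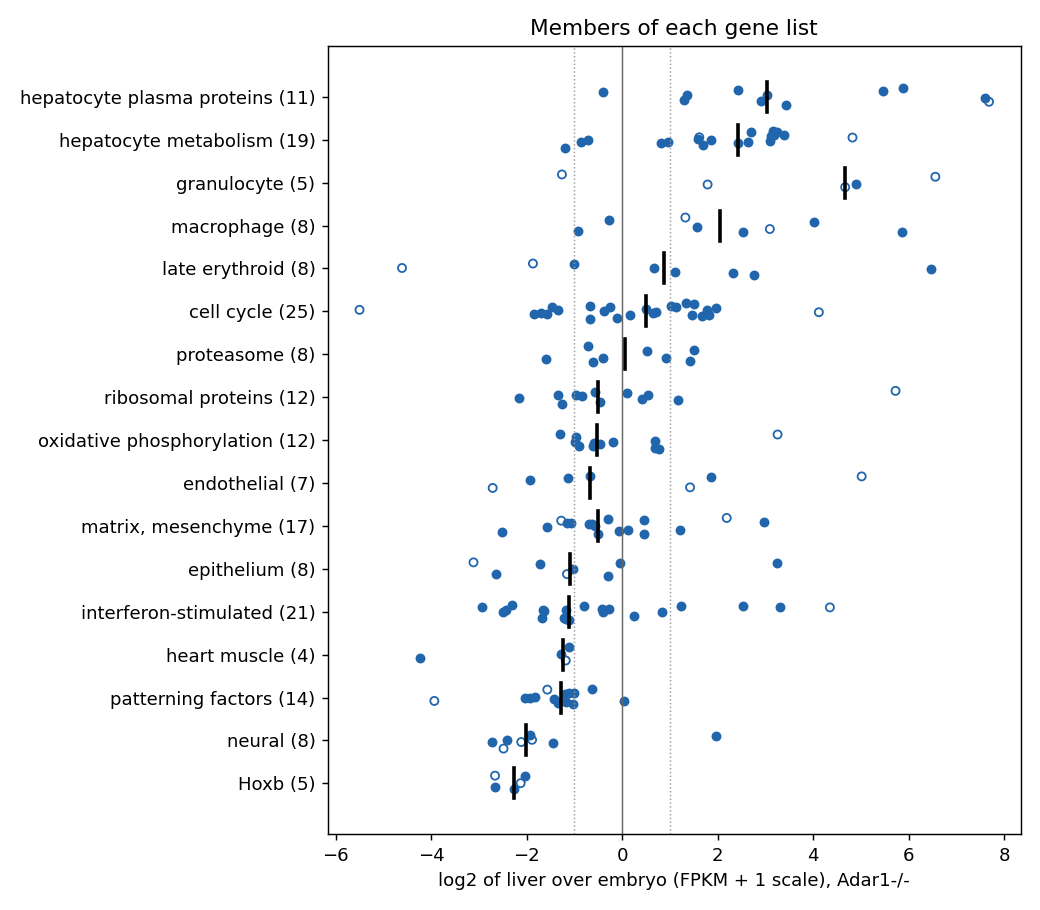
Each point is a counted member of a gene list, placed by its log2 ratio of liver over embryo on the FPKM plus 1 scale in the Adar1-/- pair, and the bar is the list's median. Open points were listed at 0 in 1 of the 2 libraries, so their place depends on the added 1 FPKM. The medians of plasma proteins, hepatocyte metabolism, granulocyte and macrophage genes lie above 2. Housekeeping lists lie around 0, and the Hoxb and neural medians lie below -2. The 3 hepatocyte regulators, whose median was -0.59, are not drawn.

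Endothelial genes did not share a direction. Stab2, the scavenger receptor of liver sinusoids, was listed at 0 in the embryo and had 31.3 FPKM in the liver. Gpr182, another receptor of sinusoidal and lymphatic endothelium, was listed at 0 in the embryo and had 1.68 FPKM in the liver. Ramp2, a partner of the adrenomedullin receptor in vessels at large, was lower, at 30.4 FPKM in the embryo and 7.29 FPKM in the liver (log2 ratio -1.92). Pecam1, a junction protein of all endothelium, had 15.53 and 9.34 FPKM (log2 ratio -0.68). Of the 7 genes counted, 3 were higher and 3 lower, and with assembled isoforms the counts were 2 and 2, Icam2 moving from a log2 ratio of 1.85 to 0.14.

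Counted genes of the body axis and nearly all of those of the nervous system were lower in the liver library. Each of the 5 counted genes of the Hoxb list, whose proteins set position along the body axis, was lower, with a median log2 ratio of -2.27. These 5 were counted through the embryo alone, so that their direction follows from the filter, and without it the median was -0.52 over 11 genes. The other 6 genes of the list, among them the neighbour Skap1, stayed below 1 FPKM in both libraries. Hoxb9 had 5.91 FPKM in the embryo and 0.0854 FPKM in the liver (log2 ratio -2.67), and Hoxb6 had 4.37 and 0.113 FPKM (log2 ratio -2.27). Hoxb8 had 3.42 and 0.0725 FPKM (log2 ratio -2.04). Hoxb2 and Hoxb3, the members of the hindbrain, had 3.36 and 5.32 FPKM in the embryo and were listed at 0 in the liver. With assembled isoforms the liver had 0.689 FPKM of Hoxb3. Hoxb5os, an RNA antisense to this cluster, had 14.3 FPKM in the embryo and was listed at 0 in the liver. The sources used here do not give the strand setting, and antisense and sense reads may be mixed.

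Counted neural genes were lower with 1 exception. Of 8 counted genes 7 were lower, with a median log2 ratio of -2.02, and of -0.54 without the filter over 18 genes. All of the 7 but Fabp7 were counted through the embryo alone, so that their direction follows from the filter. Fabp7, a fatty acid binding protein of radial glia, had 20.3 FPKM in the embryo and 2.21 FPKM in the liver (log2 ratio -2.73), and the motor protein Kif5a had 4.94 and 0.120 FPKM (log2 ratio -2.41). Nsg2, a neuronal endosomal protein outside this list, was among the 15 lowest of the 77 genes with the soundest estimates, at 31.5 FPKM in the embryo and 1.05 FPKM in the liver (log2 ratio -3.98). Gfap, the intermediate filament of astrocytes that liver stellate cells are also known to express, was the exception, with 0.162 FPKM in the embryo and 3.53 FPKM in the liver (log2 ratio 1.96).

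Patterning factors and growth regulators of the embryo followed. Of 14 counted patterning genes 12 were lower and 0 higher, beside 30.9% lower of all genes counted. Their median log2 ratio was -1.27, and -1.03 without the filter over 21 genes. All of the 12 but Gja1 and Hmga2 were counted through the embryo alone, so that their direction follows from the filter. Tbx2, a T-box factor of limb, heart and eye, had 14.3 FPKM in the embryo and was listed at 0 in the liver, where it had 2.61 FPKM with assembled isoforms. Gja1, the gap junction protein connexin 43, had 17.8 and 3.57 FPKM (log2 ratio -2.04), and Hmga2, a chromatin protein of growing embryonic tissue, had 17.3 and 4.16 FPKM (log2 ratio -1.83). Sox9, a factor of cartilage, bile duct and neural crest, had 5.01 and 0.579 FPKM (log2 ratio -1.93). The 2 genes within 2-fold were Rspo3, a Wnt agonist that liver endothelium also makes, at 3.47 and 3.56 FPKM, and Tcf21, a mesenchymal factor, at 3.80 and 2.10 FPKM. The Wnt receptor gene Fzd2, named by its ratio and not by a list, had 46.2 FPKM in the embryo and 1.15 FPKM in the liver (log2 ratio -4.46). The receptor-like gene Lrig3 had 17.7 and 0.736 FPKM (log2 ratio -3.43). Among the genes with the soundest estimates, the lowest ratio after Hba-x, -5.04, belonged to 6330403K07Rik, with 75.6 FPKM in the embryo and 1.33 FPKM in the liver.

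Heart, skin and connective tissue genes gave a less even picture. Myl7, the light chain of atrial myosin, had 53.6 FPKM in the embryo and 1.89 FPKM in the liver (log2 ratio -4.24). All 4 counted heart genes were lower, but with assembled isoforms 2 were lower and 1, Pln, was higher. Pln, Hand1 and Sgcd were counted through the embryo alone, so that their direction follows from the filter. Of 8 counted epithelial genes 5 were lower and 1 higher, with a median log2 ratio of -1.09, beside 30.9% lower of all genes counted. Krt14, Krt15, Krt17 and Cldn7 were counted through the embryo alone, and Krt20, the higher one, through the liver alone. Their direction follows from the filter too, and no median without it is given for the heart and epithelial lists. Krt14, the keratin of the basal epidermis, had 8.73 FPKM in the embryo and 0.552 FPKM in the liver (log2 ratio -2.65), while Krt20, known from intestinal epithelium, had 0.136 and 9.71 FPKM (log2 ratio 3.24). Of 17 counted matrix and mesenchyme genes 3 were higher, 5 lower and 9 within 2-fold. Dcn, the collagen-binding proteoglycan decorin, was higher, at 5.91 FPKM in the embryo and 52.7 FPKM in the liver (log2 ratio 2.96). Timp2, an inhibitor of matrix proteases, was lower, at 19.7 and 2.59 FPKM (log2 ratio -2.52), and the matrix protein Sparc had 58.4 and 55.6 FPKM. Col1a1, the main chain of fibrillar collagen, had a log2 ratio of 1.20 that turned to -1.23 with assembled isoforms.

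Skeletal muscle genes were divided in the Adar1-/- pair. Of 4 counted genes 1 was higher and 2 were lower, with a median log2 ratio of -0.53, and of 0.04 over the 3 that were above 0 in both libraries. Myh3, the embryonic myosin heavy chain, had 8.23 FPKM in the embryo and 8.49 FPKM in the liver. Myh8, the perinatal myosin heavy chain, had 1.44 FPKM in the embryo and 10.5 FPKM in the liver (log2 ratio 2.23). Tcap, a protein of the sarcomere, and Eno3, the muscle enolase, were lower, with log2 ratios of -1.09 and -1.77. The liver labelled Adar1-/-; Mavs-/- had 0.0534 FPKM of Myh3 and 0.0386 FPKM of Myh8. Over the 13 muscle genes on the list, of which 4 were counted, the summed level was 16.6 FPKM in the embryo, 20.9 FPKM in the liver and 17.6 and 0.271 FPKM in the other pair. The muscle regulators Myf5 and Myf6 had 0.208 and 0.442 FPKM in the Adar1-/- liver, and Myh2 was listed at 0 there. The part of muscle RNA in other differences between these libraries was not tested.

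Interferon-stimulated genes were the only one of 29 lists whose median was at least 2-fold one way in one pair and the other way in the other. Of 35 such genes in the shared part 21 were counted. In the Adar1-/- pair 11 of the 21 were lower in the liver library and 4 higher, with a median log2 ratio of -1.11. With assembled isoforms added the counts over the 21 were the same, but not the genes. Irgm2 (-0.84) and Trim25 (0.08) came within 2-fold, while Lgals3bp (-1.475) became lower and Slfn9 (1.05) higher. Without the filter the median was -0.29 over 30 genes, and with assembled isoforms, which brought 26 genes past the filter, it was -0.76. Without a test, 11 of 21 lower stands beside 30.9% lower of all genes counted. Median levels of the 21 genes were 6.97 FPKM in the Adar1-/- embryo and 5.24 FPKM in the Adar1-/- liver, and 0.168 and 2.35 FPKM in the Adar1-/-; Mavs-/- embryo and liver. The low library was thus the Adar1-/-; Mavs-/- embryo, where 6 of the 21 genes were listed at 0. Of the 21 genes 19 had a higher level in the Adar1-/- embryo than in the other embryo. In the livers 18 had a higher level in the Adar1-/- library, after scaling by 1.28 there and by 1.11 in the other liver. These factors tie each liver to its own embryo, so neither the livers nor the embryos were scaled to each other. The levels of Slfn2 (5.94 and 5.62 FPKM), Slfn5 (2.39 and 2.34) and Irf1 (3.19 and 3.13) in the 2 livers were closer than the factors. The same count over all genes was not made. Summed levels in the 2 embryos also differed for patterning genes (79.1 and 49.2 FPKM) and late erythroid genes (862 and 1150 FPKM). Annotated isoforms held 52.45% of the length-weighted FPKM in the Adar1-/- embryo and 28.27% in the other.

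The immunity-related GTPases, which interferon induces to attack the vacuoles of intracellular parasites, were among the lower genes. Igtp (chromosome 11, 58013058 to 58021093, mm9) had 46.6 FPKM in the Adar1-/- embryo and 5.24 FPKM in the Adar1-/- liver, a log2 ratio of -2.93, with bounds of 45.0 to 48.2 and 4.82 to 5.65 FPKM. Its values were 0.777 and 3.74 FPKM in the Adar1-/-; Mavs-/- embryo and liver (log2 ratio 1.42). Irgm1 (chromosome 11, 48675470 to 48685185) had 34.1 and 14.1 FPKM in the first pair (log2 ratio -1.22), and 0.0418 and 9.01 FPKM in the second (3.26). Irgm1 thus reached similar levels in both livers and differed most between the embryos. Irgm2 had 9.35 and 3.61 FPKM in the first pair (log2 ratio -1.17, and -0.84 with assembled isoforms), and 0.113 and 1.57 FPKM in the second (1.21). Tgtp1 and Tgtp2, near-identical neighbours between which reads may be split wrongly, had 9.36 and 8.50 FPKM in the Adar1-/- embryo, with log2 ratios of -1.65 and -2.30. In the other pair Tgtp1 had 0.00613 and 0.478 FPKM, and Tgtp2 had 0.00615 and 0.248 FPKM.

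Members with other functions were lower too. Rnf213, a large ubiquitin ligase with antimicrobial activity, was the most abundant of the list in the Adar1-/- embryo, at 90.0 FPKM, and had 15.2 FPKM in the Adar1-/- liver (log2 ratio -2.49). In the other pair it had 0.662 and 4.96 FPKM (log2 ratio 1.84). Ifi35, a cytosolic regulator of innate signalling, had 31.4 and 9.38 FPKM in the first pair (log2 ratio -1.64), and was listed at 0 in the other embryo with 2.35 FPKM in the other liver. Irf1, a transcription factor that interferon gamma induces, had 12.3 and 3.19 FPKM (log2 ratio -1.67), against 0.938 and 3.13 FPKM in the other pair (1.09). Xaf1, a proapoptotic gene, had 10.2 and 1.09 FPKM (log2 ratio -2.43, and 0.96 over isoforms with a sound estimate in both libraries only), and the sensor gene Dhx58, for LGP2, had 1.96 and 0.309 FPKM (-1.18). Ifi47, another GTPase, had 6.97 and 2.70 FPKM (log2 ratio -1.11, and 1.66 over soundly estimated isoforms only).

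The 4 members that were higher in the Adar1-/- liver library were Lgals9, Ncoa7, Ifngr1 and Trim25. Lgals9, the lectin galectin 9, was listed at 0 in the embryo and had 19.4 FPKM in the liver. With assembled isoforms the embryo had 4.47 FPKM. Ncoa7, an interferon-induced inhibitor of virus entry, had 1.10 and 11.1 FPKM (log2 ratio 2.52), and Ifngr1, a chain of the interferon gamma receptor that most cells carry, had 0.778 and 16.5 FPKM (log2 ratio 3.30). Trim25, a ligase that acts on RIG-I, had a log2 ratio of 1.24 that was 0.08 with assembled isoforms. Slfn2, Slfn5, Slfn9 and Stat2 stayed within 2-fold, at log2 ratios of 0.25, -0.80, 0.84 and -0.43. Lgals9, Ncoa7 and Ifngr1 were higher in the Adar1-/-; Mavs-/- liver too, where they had 15.8, 19.2 and 18.6 FPKM. In that pair 16 of 18 counted genes of the list were higher and 1 lower, beside 30.2% higher of all genes counted.

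**Figure D3:**
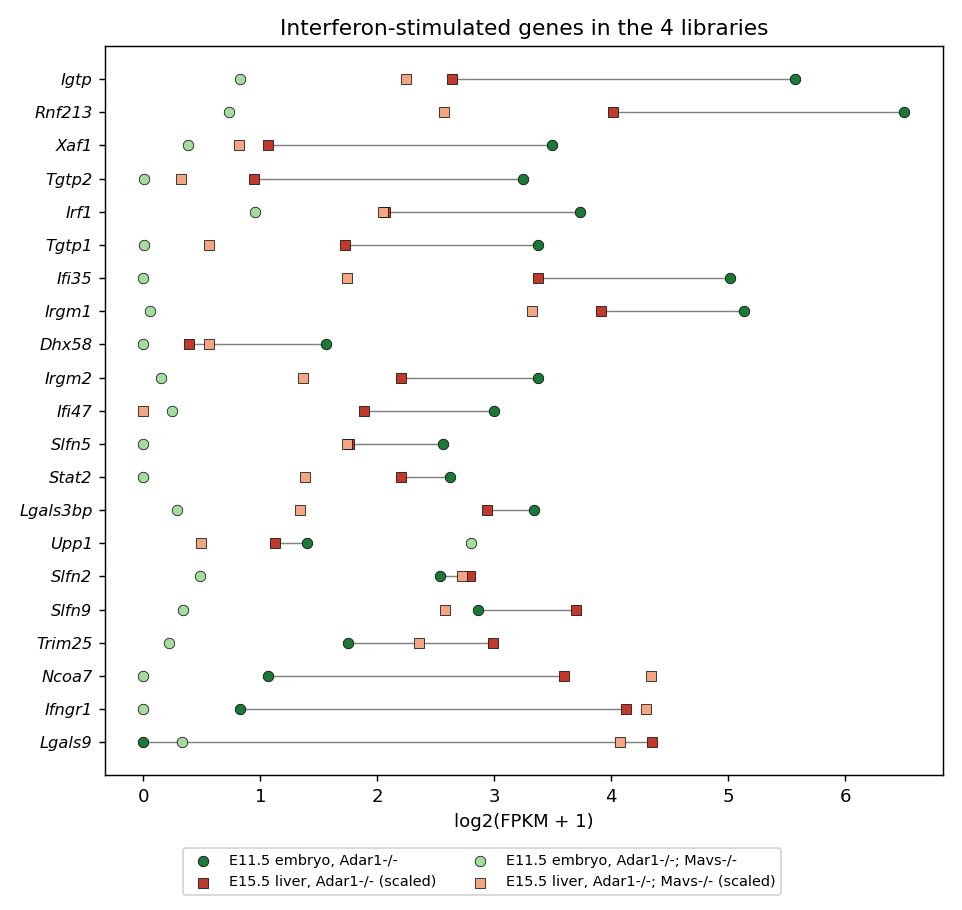
Each row is 1 of the 21 counted interferon-stimulated genes, ordered by its log2 ratio in the Adar1-/- pair, and points give log2 of FPKM plus 1 in the 4 libraries (circles are embryos, squares are livers, pale colours are Adar1-/-; Mavs-/-). A line joins the embryo and liver of the Adar1-/- pair. In the upper rows the Adar1-/- embryo is at the right and the pale embryo at the left, with both livers between them.

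Promoters of this group are shown because 11 of its 21 counted members were lower. Windows of 250 bases before each gene start (RefSeq, GRCm38.p6, another build than that of the expression values) were searched on both strands for GAAA, any 2 bases and GAAA, the core of the interferon-stimulated response element (ISRE), and for TTCNNNGAA, the gamma-activated site (GAS). For 20 of the 21 genes a window was found, 24 windows in all. The ISRE letters were in 9 windows (37.5%), beside 2.98% of all 32851 mouse windows and 2.80% of the 1535 windows of counted genes. The GAS letters were in 5 windows (20.8%), beside 7.02% and 6.38%. The list was chosen as interferon-stimulated genes and holds near-identical neighbours, so these shares describe the choice of the list and are no test. Of the 9 genes with the ISRE letters 5 were lower in the Adar1-/- liver, 3 within 2-fold and 1, Lgals9, higher. Beside 11 lower of all 21, the letters did not set the lower genes apart. A match is a description of these letters and does not show binding. In the 5 windows that follow, capitals mark ISRE and GAS letters on either strand. Igtp (chr11:58199306-58199555, forward strand) has the ISRE letters 34 bases and the GAS letters 45 bases before the start. Irgm2 (chr11:58214727-58214976, forward strand) has the same pair at 64 and 75 bases, and Tgtp2 (chr11:49064213-49064462, reverse strand) at 70 and 81 bases. Irgm1 (chr11:48871421-48871670, reverse strand) has overlapping ISRE matches at 30 and 24 bases and no GAS letters. Lgals9 (chr11:78984925-78985174, reverse strand), which was higher in liver, has the ISRE letters at 55 bases on the opposite strand.
Igtp: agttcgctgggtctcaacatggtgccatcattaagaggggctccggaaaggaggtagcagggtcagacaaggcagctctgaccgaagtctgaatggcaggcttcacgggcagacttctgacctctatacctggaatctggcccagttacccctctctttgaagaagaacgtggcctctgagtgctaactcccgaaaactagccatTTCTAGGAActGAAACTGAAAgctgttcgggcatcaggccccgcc
Irgm2: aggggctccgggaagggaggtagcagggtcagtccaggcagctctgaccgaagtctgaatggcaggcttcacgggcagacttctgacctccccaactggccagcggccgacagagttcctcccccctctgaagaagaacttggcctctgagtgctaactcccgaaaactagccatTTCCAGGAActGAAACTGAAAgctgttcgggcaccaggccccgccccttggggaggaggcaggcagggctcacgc
Tgtp2: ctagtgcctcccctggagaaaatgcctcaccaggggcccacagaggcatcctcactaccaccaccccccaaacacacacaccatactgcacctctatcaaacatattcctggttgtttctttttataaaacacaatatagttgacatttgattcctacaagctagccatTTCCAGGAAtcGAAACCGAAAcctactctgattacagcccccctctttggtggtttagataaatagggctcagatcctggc
Irgm1: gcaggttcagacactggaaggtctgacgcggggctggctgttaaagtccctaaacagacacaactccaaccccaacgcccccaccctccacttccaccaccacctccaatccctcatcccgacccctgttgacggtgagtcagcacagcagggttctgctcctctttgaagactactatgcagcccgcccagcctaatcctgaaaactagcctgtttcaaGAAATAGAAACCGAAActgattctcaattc
Lgals9: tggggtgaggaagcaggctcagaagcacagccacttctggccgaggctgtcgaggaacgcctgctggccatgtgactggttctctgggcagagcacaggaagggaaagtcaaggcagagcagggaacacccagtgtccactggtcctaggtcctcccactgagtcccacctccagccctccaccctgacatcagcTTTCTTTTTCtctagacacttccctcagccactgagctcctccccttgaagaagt

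Genes around this pathway were few. Of 5 counted genes of RNA sensing and MAVS signalling 2 were higher and 1 lower, and with assembled isoforms 0 were higher and 1 lower. Tbk1, the kinase that activates IRF3, had 5.24 FPKM in the embryo and 12.6 FPKM in the liver (log2 ratio 1.12, and 0.71 with assembled isoforms). Of 5 counted genes of RNA editing and known editing targets 1 was higher and 1 lower, and Adarb1, the other active editing enzyme, was lower with annotated isoforms only (log2 ratio -1.37, and 0.05 with assembled isoforms).

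Housekeeping and growth lists had medians within 2-fold. Of 25 counted cell cycle genes 10 were higher and 6 lower, with a median log2 ratio of 0.49. Top2a, the topoisomerase of mitotic chromosomes, had 89.7 FPKM in the embryo and 127 FPKM in the liver (log2 ratio 0.49). Cdk4, the kinase of entry into S phase, was lower at 1044 and 288 FPKM (log2 ratio -1.86), as was the mitotic kinase Aurkb at 72.4 and 21.6 FPKM (-1.70). Brca1, of DNA repair, was higher at 7.69 and 29.7 FPKM (log2 ratio 1.82). Of 12 genes on the ribosomal protein list, which also holds the kinase gene Rps6kb1, 2 were higher and 3 lower. Rack1, a component of the small subunit, had 2159 FPKM in the embryo and 1201 FPKM in the liver (log2 ratio -0.85). Of 12 counted genes on the oxidative phosphorylation list, with the dehydrogenase genes Mdh1 and Ogdh, 1 was higher, 1 lower and 10 within 2-fold. Of 8 on the proteasome list, which also holds the recombination gene Psmc3ip, 2 were higher and 1 lower. Medians of these lists were -0.51, -0.53 and 0.07 for ribosomal, oxidative and proteasome genes. Scaled to TPM they were -2.35, -2.29 and -1.64, and that of cell cycle genes was -1.37.

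Some metabolic and stress genes differed within these lists. Hk1, the hexokinase of red cells and many other tissues, had 16.4 FPKM in the embryo and 108 FPKM in the liver (log2 ratio 2.64, and -1.48 over soundly estimated isoforms only), while the phosphofructokinase Pfkl had 47.7 and 22.5 FPKM (-1.05). Of 7 counted genes of sugar use 4 were higher and 2 lower, with a median log2 ratio of 1.25. With assembled isoforms 3 were higher and 3 lower and the median was -0.80, and scaled to TPM it was -1.77. Among 11 counted stress genes 4 were higher and 3 lower. The p53 targets Mdm2 and Ccng1 were higher, Mdm2 at 3.03 and 16.7 FPKM (log2 ratio 2.13) and Ccng1 at 5.33 and 20.8 FPKM (1.78). The endoplasmic reticulum chaperones Hsp90b1 and P4hb, which serve secreted proteins, had log2 ratios of 0.90 and 0.50 at levels of 219 and 380 FPKM in the liver. Of 9 counted fetal growth genes 2 were higher and 3 lower. Grb10, an imprinted brake on growth, had 156 FPKM in the embryo and 154 FPKM in the liver, whereas Igf2bp1, an mRNA-binding protein of fetal tissues, had 24.1 and 8.07 FPKM (log2 ratio -1.47).

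Small nuclear RNAs took the largest share of the FPKM among gene classes in both libraries. The 29 counted small nuclear RNA genes held 40.0% of the summed FPKM of all counted genes in the embryo and 72.0% in the liver, and 21 of them were higher and 8 lower. Protein-coding genes held 37.5% and 7.93%. Rnu1a1, a U1 RNA of the spliceosome, had 12390 FPKM in the embryo and 51360 FPKM in the liver (log2 ratio 2.05), and Rnu2-10, a U2 RNA, had 2398 and 28830 FPKM (3.59). These genes have near-identical copies, so the values of single copies are uncertain. Their median length was 156 bases, short for libraries of fragmented RNA, and the sources used here do not give the size selection. Scaling by the sum of all gene values (TPM), which these RNAs dominate, shifted every log2 ratio by -2.00 before the pseudocount, and by -0.11 when the 10 most abundant genes of each library were left out of the sum. On the full TPM scale 172 genes were higher and 1084 lower, 13.7% of the 2-fold genes being higher where 48.5% were higher with the median scaling. Of the 109 genes named here as 2-fold apart, 81 stayed so and 11 changed sign, among them Serpinf1, Grn, Ube2o and Stat5a.

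Genes outside the lists were named by the size of their ratio among the 77 genes with the soundest estimates, of which 37 were higher and 40 lower. Beside those above, the higher protein-coding ones were Sowaha, Ccar1 and Plxnc1, with log2 ratios of 3.34, 3.07 and 2.93. Ccar1, a regulator of transcription and the cell cycle, had 2.64 FPKM in the embryo and 29.5 FPKM in the liver. The lower ones included Fam171a2 (log2 ratio -3.94), Cdr2l (-3.02), Soga3 (-2.95), Moxd1 (-2.61), Rnf227 (-2.43) and Tpd52l1 (-2.41). Ten1, a subunit of the telomere-binding CST complex, and Nme2, a nucleoside diphosphate kinase, had 52.7 and 47.8 FPKM in the embryo and were listed at 0 in both livers. Since a value of 0 may come from a failed estimate, no fold is given for them.

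The second pair of libraries gave most of these differences again. Of the 511 genes higher in the Adar1-/- liver, 324 (63.4%) were higher in the Adar1-/-; Mavs-/- liver against its embryo and 23 were lower there. Of the 543 lower genes, 345 (63.5%) were lower and 23 higher. In that pair 496 of 1640 counted genes (30.2%) were higher, 554 (33.8%) lower and 64% either. Across the 1535 genes counted in both pairs the log2 ratios had a Pearson correlation of 0.76 and a Spearman correlation of 0.77. This correlation is across genes, which are not independent replicates, and the pairs share tissue, stage and strain labels. Hba-x had a log2 ratio of -6.19 in the second pair, Slc4a1 5.91, Apob 8.15, Lyz2 4.88, Fzd2 -4.43 and Dcn 3.12. Median log2 ratios of the lists there were 2.64 for plasma proteins, 1.87 for the same 19 metabolic genes, 2.26 for macrophage genes and -1.67 for the Hoxb genes. Over the same 5 granulocyte genes the median was 1.29, with Prtn3 listed at 0 in both libraries and Evi2a at -0.70.

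A small set of genes was 2-fold apart in opposite directions in the 2 pairs, 46 of 1535, with 23 each way. Of the 16 interferon-stimulated genes counted in both pairs, 6 were lower in the Adar1-/- liver and higher in the other liver, namely Igtp, Rnf213, Irf1, Ifi35, Irgm1 and Irgm2. None of the 11 plasma protein genes was in this set, which beside 46 of 1535 genes says little about so short a list. Gm22442, a small RNA of Cajal bodies, was in the set by its values, at 5548 and 296 FPKM in the Adar1-/- embryo and liver, and at 0 and 222 FPKM in the other pair.

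**Figure D4:**
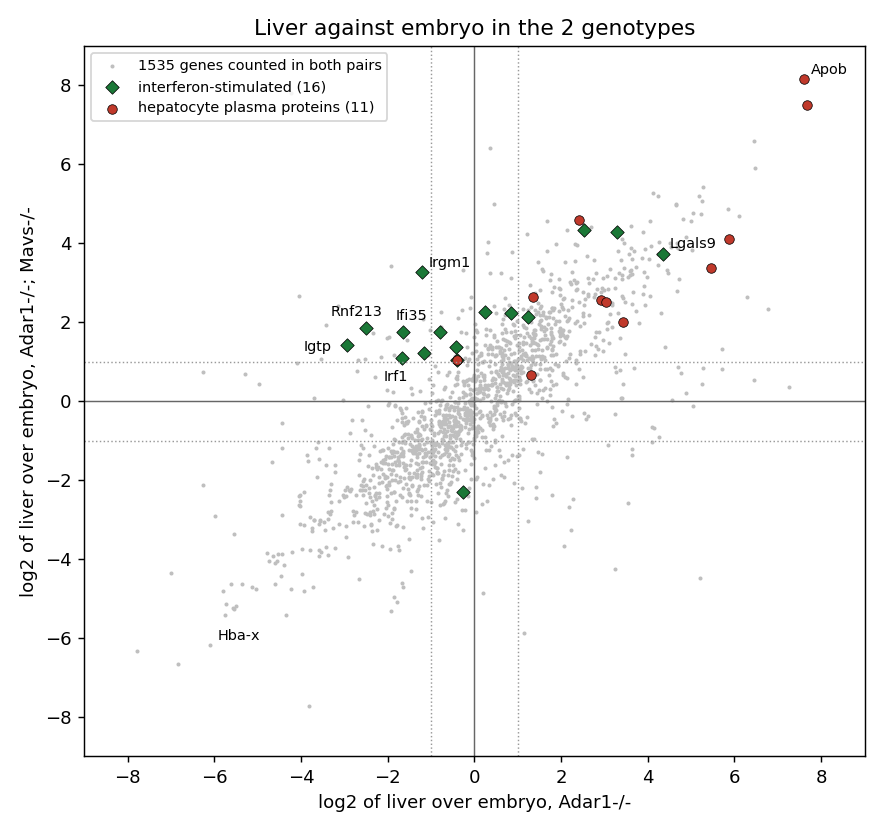
Each point is a gene counted in both pairs, placed by its log2 ratio of liver over embryo in the Adar1-/- pair (horizontal) and in the Adar1-/-; Mavs-/- pair (vertical), and 2 genes lie outside the axes. Dotted lines mark 2-fold differences. Plasma protein genes lie in or near the upper right corner, Hba-x in the lower left, and 6 interferon-stimulated genes in the upper left.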

How the data were processed

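Trizol was used to extract total RNA, and libraries followed Illumina protocols, per the labels' protocols. The authors deposited FPKM for each isoform with confidence bounds, a status and a coverage value, per the file headers. Each deposited coverage value, the mean read depth of an isoform, was used only as a sign of depth. Per the submitters' processing notes, TopHat 1.4.0, Cufflinks 2.2.1 and the mm9 build were involved, with no role stated. The sources used here give no read totals, strand or options. Symbols came from GENCODE M21 through the transcript identifiers, of which 90.2% matched in the shared part. FPKM of annotated isoforms were summed per symbol, without a test, in Python 3.11.15 with pandas 2.3.3. The scaling code was run on simulated libraries made from the embryo values, with a few genes raised and as many lowered. A pair as unlike as this one was not simulated, so that run does not bear on the choice of scaling. The members and the 29 gene lists were chosen with earlier results of these data known. Genes named were list members (the most abundant and the exceptions), the 15 highest and 15 lowest ratios among genes of at least 5 FPKM in either library with status OK for every isoform, bounds apart, no pseudogene and the same direction with assembled isoforms, the 10 listed at 0 in 1 library with the highest values in the other by the same criteria, and the 10 most abundant of each library; the text gives a choice of these, and some are not reported here. Alternatives changed the scaling, the pseudocount, the filter and the isoforms used. Where promoters had several windows all were searched.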

Additional observations from a re-analysis of the deposited data

Results flagged for a closer look

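The median of the interferon-stimulated genes lay in opposite directions in the 2 pairs, while single genes varied. It was a log2 ratio of -1.11 over 21 genes in the Adar1-/- pair and 1.42 for the same genes in the Adar1-/-; Mavs-/- pair. The first was smaller in size without the filter and with assembled isoforms, as given above. Of 16 genes counted in both pairs, 6 were lower in the first and higher in the second. Lgals9, Ncoa7, Ifngr1 and Trim25 were higher in both. Igtp had -2.93 and 1.42, Rnf213 -2.49 and 1.84, Irf1 -1.67 and 1.09, Irgm1 -1.22 and 3.26, and Irgm2 -1.17 and 1.21. These genes were above 0 in all 4 libraries. The difference between the pairs was not tested, since each library has no replicate, and the Adar1-/-; Mavs-/- liver carries that name by its label only.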

How the results depend on the processing

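No paired analysis was possible because each group has 1 library and no test was made, and leaving out a replicate was not possible for the same reason. Over the counts of 2-fold genes and the list medians, TPM scaling moved the most values in the Adar1-/- pair. It gave 172 higher and 1084 lower genes, and medians of -0.66 for megakaryocyte, -1.99 for matrix, -1.93 for interferon-stimulated, -1.37 for cell cycle, -2.00 for fetal growth, -2.35 for ribosomal, -1.64 for proteasome, -2.29 for oxidative and -1.77 for sugar use genes. Single genes that changed sign with TPM were Alox12 (-0.089), Brca1 (-0.049), Ccng1 (-0.037), Col1a1 (-0.51), Grn (-0.35), Serpinf1 (-0.67), Stat3 (-0.40), Stat5a (-0.14), Tbk1 (-0.59), Trim25 (-0.30) and Ube2o (-0.79). A pseudocount of 0.1 moved medians away from 0, to 3.64 for metabolism, -5.02 for Hoxb, -4.56 for neural, -2.92 for patterning and 1.25 for sensing genes. In the Adar1-/-; Mavs-/- pair it gave 5.16 for granulocyte, 1.96 for megakaryocyte, 2.50 for metabolism, -4.12 for Hoxb, -3.22 for patterning, -4.39 for muscle, 3.89 for interferon-stimulated and 3.0 for sensing genes. Without a filter the granulocyte median was -0.061 over 9 genes and the Hoxb median -0.52 over 11, and with a filter of 5 FPKM the patterning median was -1.98 over 4. With assembled isoforms medians were -1.03 for heart and -0.80 for sugar use genes, and -0.058 for endothelial genes in the second pair. Col1a1 (-1.23), Pln (1.03), Adarb1 (0.046) and, in the second pair, Stat2 (-0.37) changed sign. With isoforms of status OK only, the ribosomal median was -1.58, and Btnl10 (-0.028), Hk1 (-1.48), Ifi47 (1.66) and Xaf1 (0.96) changed sign. Among genes above 0 in both libraries 354 were higher and 345 lower. This alternative, protein-coding genes only and isoforms of at least 300 bases were chosen after seeing the data. The cause of these moves was not tested beyond what each alternative changes. Of 413 list medians recomputed over both pairs, 28 changed sign and 59 moved by more than 1 on the log2 scale. TPM turned 9 of 28 in the first pair, also those of late erythroid (-1.05), blood factor (-1.19), lipid (-1.08), sensing (-0.85) and stress genes (-0.95), and 20 moved by more than 1. With assembled isoforms 4 turned, also those of hepatocyte regulators (0.52), endothelial (0.25) and proteasome genes (-0.32). FPKM as deposited gave 426 higher and 635 lower genes and turned the proteasome median alone (-0.26), as did TPM without the most abundant genes (-0.035). With an upper quartile factor, protein-coding genes only and isoforms of at least 300 bases no median changed sign or moved by more than 1. Depth limits the genes of 1 to 5 FPKM most, whose bounds lay a median of 16.9% from the value in the embryo library.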
